A study of Mus musculus with 6 samples.

Results

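The genes described here are 8 oocyte-type Nlrp paralogs of the mouse, Nlrp4a, Nlrp4b, Nlrp4e, Nlrp9a, Nlrp9b, Nlrp9c, Nlrp14 and the pseudogene Nlrp5-ps, picked by symbol from the 55335 genes measured in each library. Their RNA was measured by Smart-Seq2, which copies polyadenylated RNA into full-length cDNA from very small samples, in mouse 4-cell embryos. The 3 DRB libraries come from embryos that were given 20 µM DRB, a nucleoside analogue that inhibits transcription elongation by RNA polymerase II, as zygotes, 6 h after fertilization. The drug was left on for 20 h and washed out, and the embryos then grew for 26 h before collection at the 4-cell stage. The 3 Con libraries come from control 4-cell embryos. A vehicle treatment and culture times are not recorded for Con, and neither are the strain, parental age and number of embryos behind any library. All libraries are of embryos, so whether these genes are limited to oocytes cannot be seen in them.

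NLRP proteins share a NACHT domain, which binds nucleotides, and a run of leucine-rich repeats, and most begin with a pyrin domain. The best known of them, such as NLRP3, sense danger in immune cells and assemble inflammasomes with the adaptor Pycard and caspase-1. In rodents another branch has multiplied in clusters of neighbouring copies and is transcribed in the growing oocyte, which stores the mRNA for use after fertilization, while the genome of the embryo is still silent. Nlrp5, also called Mater, is the founding member of that branch and a subunit of the subcortical maternal complex, a protein assembly under the egg membrane without which mouse embryos stop at the first cleavages. Nlrp14 is also maternally required in the mouse, since embryos of females without it arrest early. Nlrp9b has a separate role in the mouse gut, where it takes part in sensing rotavirus. DRB was present while the embryonic genome is first switched on, and it was washed out before collection. How far transcription was blocked, and how far it resumed, was not measured in these embryos. The comparison asks how high each of these RNAs stood at the 4-cell stage, relative to the rest of its library.

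All 8 genes lie on chromosome 7 of GRCm38 by GENCODE M21. In order, Nlrp4b spans chr7:10687789-10730168 on the plus strand, Nlrp5-ps chr7:14530652-14622479 on the minus strand and Nlrp9b chr7:19991465-20073306 on the plus strand. Nlrp4e follows at chr7:23301192-23362277, plus strand, 23.6 kb before Nlrp5 at chr7:23385889-23441922. Nlrp9c (chr7:26322473-26403700, minus), Nlrp4a (chr7:26435113-26476142, plus) and Nlrp9a (chr7:26535023-26575615, plus) stand together, with gaps of 31.4 kb and 58.9 kb. Nlrp14 is apart from them at chr7:107166990-107198102, plus strand. The first 7 and Nlrp5 fit into 15.9 Mb.

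The annotation lists Nlrp5-ps as a transcribed unprocessed pseudogene, that is, a duplicated copy that kept its introns. Its transcript Nlrp5-ps-203 has 10 exons and 3105 bases, and 926 of them align with the Nlrp5 transcript at 97.1% identity. Each exon of Nlrp5-ps was compared with those of Nlrp5, and only its best match was kept. Exons 3, 5 and 7 of Nlrp5 were such a match, and exons 1, 2, 4, 6 and 16 were not. The large exon of 1576 bases, which in NLRP genes encodes the NACHT domain, had no like exon in any Nlrp5-ps transcript, and neither had exon 11, of 171 bases, whereas the repeat exons 9, 10 and 12 to 15 had one. The exon pairs shown are 2 of these repeat exons, chosen because they show how close the pseudogene is to the gene whose RNA it could be mistaken for; capitals mark the bases that differ. Exon 6 of Nlrp5-ps-203 (chr7:14586618-14586788, minus) and exon 12 of Nlrp5 (chr7:23430029-23430199, plus), each of 171 bases, differ at 1 base.
Nlrp5-ps exon 6: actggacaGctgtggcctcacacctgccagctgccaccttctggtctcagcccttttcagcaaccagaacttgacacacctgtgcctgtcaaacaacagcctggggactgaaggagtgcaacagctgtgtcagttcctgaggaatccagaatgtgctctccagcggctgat
Nlrp5 exon 12: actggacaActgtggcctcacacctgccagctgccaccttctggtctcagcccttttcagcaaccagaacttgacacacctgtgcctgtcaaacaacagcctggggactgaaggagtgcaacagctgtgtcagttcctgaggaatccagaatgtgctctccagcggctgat
Exon 8 of Nlrp5-ps-203 (chr7:14580934-14581104, minus) and exon 14 of Nlrp5 (chr7:23435747-23435917, plus), also of 171 bases, differ at 5 bases.
Nlrp5-ps exon 8: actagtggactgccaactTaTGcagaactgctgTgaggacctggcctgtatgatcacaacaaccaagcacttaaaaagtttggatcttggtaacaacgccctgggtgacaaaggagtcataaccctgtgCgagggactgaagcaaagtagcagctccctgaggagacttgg
Nlrp5 exon 14: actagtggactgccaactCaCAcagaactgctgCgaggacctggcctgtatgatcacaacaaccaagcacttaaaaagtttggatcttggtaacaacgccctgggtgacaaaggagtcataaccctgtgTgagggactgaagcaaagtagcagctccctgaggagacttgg

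Nlrp4e has close copies too, among them the unprocessed pseudogene Gm8486 (chr7:20618446-20637932, plus), which differs from it at 25 of 2170 aligned bases. The following coding stretch of 150 bases in exon 2 of Nlrp4e (chr7:23321668-23321817, plus) and its counterpart in exon 2 of Gm8486 (chr7:20631584-20631733, plus) is the one where they differ most, at 5 bases, in capitals. It is shown because Gm8486 lay higher in every DRB library than in any Con library while the groups overlapped for Nlrp4e, a contrast between the genes that was not itself tested.
Nlrp4e: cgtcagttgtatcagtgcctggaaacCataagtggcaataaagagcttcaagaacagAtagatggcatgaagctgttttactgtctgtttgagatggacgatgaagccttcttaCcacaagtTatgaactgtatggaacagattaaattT
Gm8486: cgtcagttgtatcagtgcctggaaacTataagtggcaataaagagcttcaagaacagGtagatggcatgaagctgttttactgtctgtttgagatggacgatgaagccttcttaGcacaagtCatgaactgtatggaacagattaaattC
To see how far reads of the members could be assigned to another gene, every stretch of 50 bases of their transcripts was looked up in the transcripts of all other genes. The share found elsewhere was 46.6% for Nlrp5-ps and 36.7% for Nlrp4e. It was 7.79% for Nlrp9b, 6.07% for Nlrp9a, 2.63% for Nlrp4a, 2.61% for Nlrp9c and 0% for Nlrp4b and Nlrp14. The sources used here do not tell how reads that map to more than 1 gene were counted, so the values of Nlrp5-ps and Nlrp4e are uncertain in a way that those of Nlrp14 and Nlrp4b are not.

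**Figure D1:**
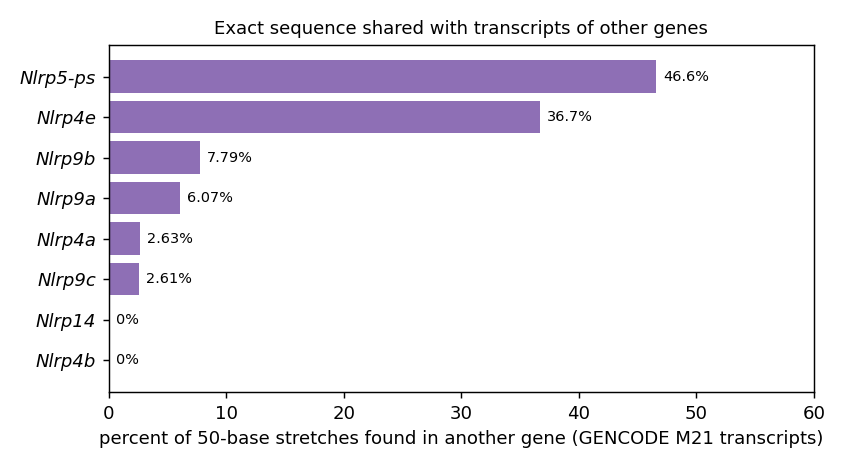
Share of the 50-base stretches of each member's transcripts that also occur in a transcript of another gene, in percent, one bar per gene. Nlrp5-ps (46.6%) and Nlrp4e (36.7%) stand apart from the others, which lie between 0% and 7.79%.

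Expression was deposited as FPKM, fragments per kilobase of transcript scaled to the fragments of the library, which allows levels of different genes to be compared per length. The values are relative to the library, so a difference in total RNA per embryo between the groups cannot be seen in them. The depth estimated from the steps of the low values was 22800000 to 25700000 fragments in DRB libraries and 22100000 to 23100000 in Con libraries. Member values then rest on about 60 fragments (Nlrp4b in DRB replicate 3) to about 3686 (Nlrp14 in DRB replicate 1), if the longest transcript is taken as the length. Pearson's r of log2(FPKM + 1) between libraries was 0.909 to 0.937 within DRB, 0.935 to 0.944 within Con and 0.869 to 0.915 between the groups. Mitochondrial genes took 23.9% to 26.4% of the FPKM sum in DRB libraries and 12.2% to 20% in Con libraries. Groups were compared on log2(FPKM + 1) with limma across the 11893 genes with at least 1 FPKM in at least 3 libraries, and a gene was called at a Benjamini-Hochberg adjusted p below 0.05. Whether the replicates are separate matings or cultures is not stated, and the p-values therefore reflect the spread of these libraries alone, which may be technical.

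Of the 8 members, all passed the filter, 1 was called higher in DRB embryos, Nlrp5-ps, and 0 were called lower. Of all tested genes 2.48% were called, with 1.53% of the tested genes higher and 0.95% lower, and the share of 12.5% among the members rests on 1 gene. At an unadjusted p below 0.05 the count is again 1 of 8, against 18.1% of all tested genes, and the DRB and Con values did not overlap for 1 of 8, against 23.8% of all tested genes. The median log2 fold change, DRB over Con, was 0.01 over the members and -0.09 over all tested genes. It was above 0 for 4 members and below 0 for 4.

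**Figure D2:**
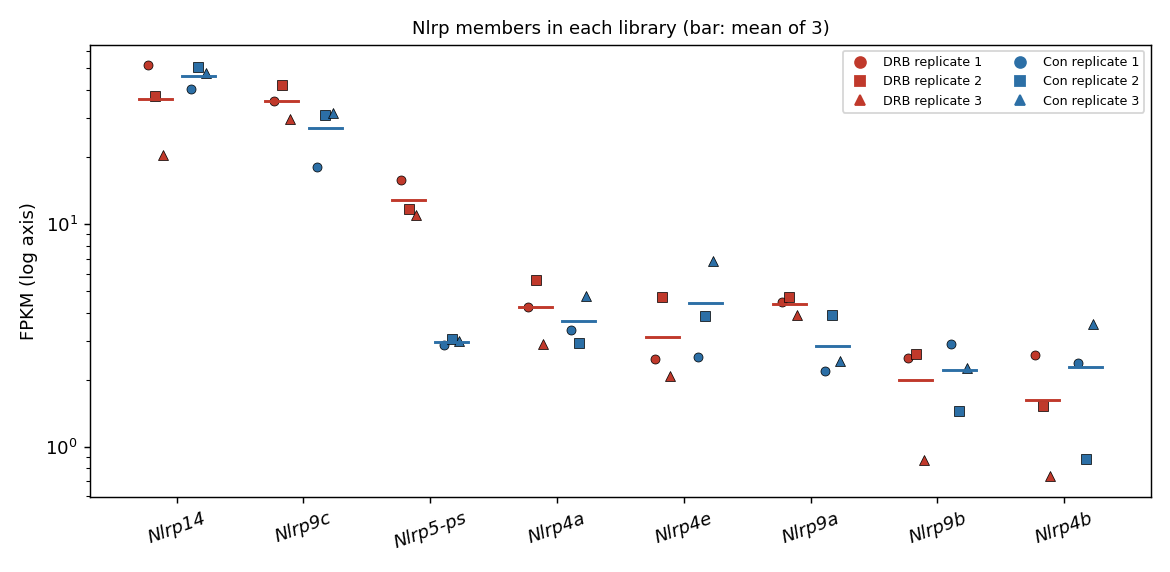
FPKM of the 8 members in each library on a log axis, DRB in red and Con in blue, with 1 symbol per replicate number and a bar at the mean of 3. The groups are apart for Nlrp5-ps alone, with 10.98 to 15.85 FPKM in DRB and 2.86 to 3.05 FPKM in Con.

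The levels fell into a high pair and a low group. In DRB embryos Nlrp14 (36.6 ± 15.6 FPKM, SD, n = 3) and Nlrp9c (35.7 ± 6.24 FPKM) led and did not differ beyond their spread. Nlrp5-ps came next at 12.9 ± 2.62 FPKM. Below it Nlrp9a (4.36 ± 0.411), Nlrp4a (4.27 ± 1.36), Nlrp4e (3.10 ± 1.42), Nlrp9b (2.00 ± 0.977) and Nlrp4b (1.62 ± 0.928 FPKM) followed, each differing from the next by less than the larger of their SDs. The values of Nlrp5-ps in DRB libraries overlapped neither those of Nlrp9c above it nor those of Nlrp9a below it. In Con embryos Nlrp14 (46.2 ± 5.35 FPKM) stood above Nlrp9c (26.9 ± 7.64 FPKM), and its lowest library, at 40.26 FPKM, was above the highest of Nlrp9c, at 31.66 FPKM. The other members in Con were Nlrp4e (4.41 ± 2.22), Nlrp4a (3.68 ± 0.956), Nlrp5-ps (2.96 ± 0.0961), Nlrp9a (2.85 ± 0.934), Nlrp4b (2.28 ± 1.34) and Nlrp9b (2.20 ± 0.727 FPKM), neighbours again within their spread. Nlrp5-ps thus stood next below Nlrp9c in DRB embryos and among the low genes in Con embryos, while Nlrp14 and Nlrp9c led in both. Nlrp14 ranked 2350 and Nlrp9c 2824 by mean FPKM among the tested genes, Nlrp5-ps 5936.

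Nlrp5-ps was higher in DRB embryos by the ratio of the means, 4.34-fold. It had 15.85, 11.73 and 10.98 FPKM in DRB replicates 1 to 3, against 2.86, 3.05 and 2.98 FPKM in Con replicates 1 to 3. Every DRB library lay far above every Con library, and the Con libraries were nearly alike. The log2 fold change was 1.79 with a standard error of 0.38 and a 95% interval of 0.96 to 2.62 (limma, adjusted p 0.0344). The size held when a library was left out, with log2 fold changes of 1.64 to 1.89, but the call was lost in each of the 6 cases, at adjusted p of 0.0549 to 0.107. It was also lost with the replicate number as a block (adjusted p 0.0767) and without the filter on low values (0.15).

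Nlrp5 itself, the coding counterpart, was not called. It had 7.24, 2.76 and 3.08 FPKM in DRB embryos and 4.59, 4.89 and 3.96 FPKM in Con embryos, a log2 fold change of -0.12 (adjusted p 0.917). DRB replicate 1 held the highest value of the 6 and the other 2 DRB libraries the lowest. The log2 ratio of Nlrp5-ps + 1 to Nlrp5 + 1 was 1.03, 1.76 and 1.55 in DRB embryos, against -0.53, -0.54 and -0.32 in Con embryos. The pseudogene was thus above Nlrp5 in each DRB library and below it in each Con library. The ratio was higher in DRB embryos by 1.91; a two-sided exact permutation test gave p = 0.1, and 3 against 3 libraries cannot give less. Of all 50-base stretches of Nlrp5-ps, 7.2% also occur in Nlrp5.

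Most of the shared sequence of Nlrp5-ps, 38.1% of its stretches, belongs to Vmn1r90, a vomeronasal receptor gene on the same strand whose exons overlap a 3′ exon of the pseudogene. The overlap covers 1757 of the 4335 exon bases of Nlrp5-ps (40.5%), within chr7:14561360-14563353. Vmn1r90 had 1.22, 1.36 and 0.29 FPKM in DRB embryos, against 0.07, 0.21 and 0.14 FPKM in Con embryos. These values were below the filter and were not tested. They were also higher in each DRB library than in any Con library, but in FPKM a small part of the level of Nlrp5-ps. FPKM is per length, and the longest transcript of Vmn1r90 has 7796 bases against 3105 for Nlrp5-ps. In fragments that part is therefore larger than in FPKM. The log2 ratio of Nlrp5-ps + 1 to Vmn1r90 + 1 was higher in DRB embryos by 1.06, with p = 0.1 in the same exact test, again its lower limit. The added 1 is larger than every Con value of Vmn1r90, so this ratio mostly follows Nlrp5-ps. The direction of the difference also depends on the added 1. The mean of Vmn1r90 was 0.957 FPKM in DRB and 0.14 FPKM in Con, and that of Nlrp5-ps 12.9 and 2.96 FPKM. By these means, with nothing added, the ratio of Nlrp5-ps to Vmn1r90 was lower in DRB embryos than in Con embryos. The exact test therefore cannot tell which of these genes rose more. From which part of the pseudogene its fragments came was not tested, since the files hold 1 value per gene.

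**Figure D3:**
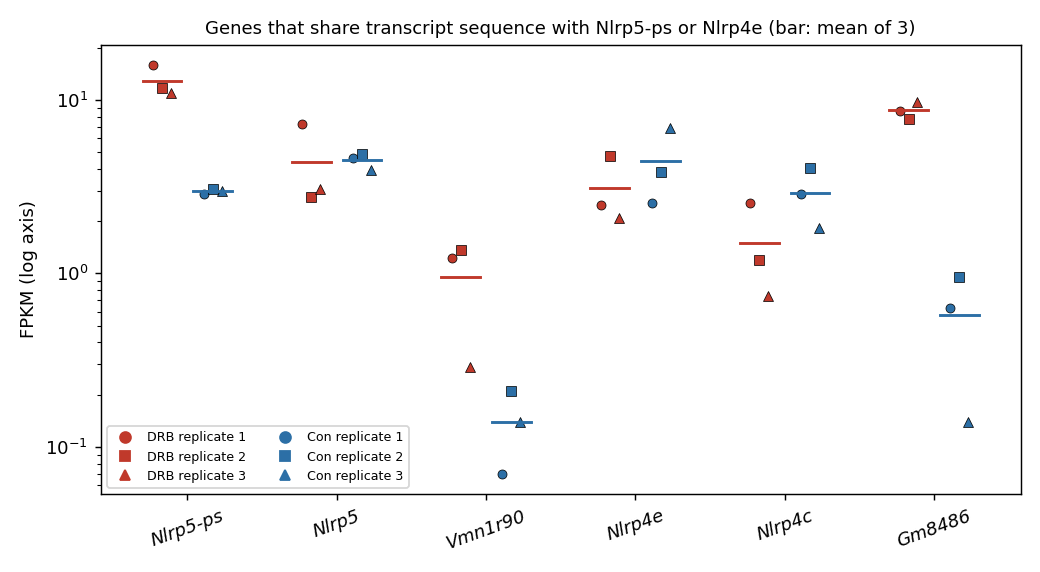
FPKM on a log axis of Nlrp5-ps and Nlrp4e and of genes that share transcript sequence with them, DRB in red left of Con in blue, with 1 symbol per replicate number and a bar at the mean of 3. Nlrp5-ps, Vmn1r90 and Gm8486 lie higher in all DRB libraries than in any Con library, while the groups overlap for Nlrp5, Nlrp4e and Nlrp4c.

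Markers of developmental stage were measured beside Nlrp5-ps. Of the 9 markers of the 2-cell embryo, 8 were in the files, 7 were tested and 3 were called higher, Gm5662, Zfp352 and Tdpoz1, with a median log2 fold change of 2.07 over the tested markers. The groups overlapped for the other 4 tested markers, Tcstv3, Tcstv1, Zscan4d and Zscan4c, which were not called. The summed level of all 8 markers in the files was 177 to 770 FPKM in DRB libraries and 25.2 to 84.3 FPKM in Con libraries. Of that sum Gm5662 held 164.1, 545.18 and 81.97 FPKM in DRB embryos, against 21.31, 15.83 and 16.09 FPKM in Con embryos. No marker in the files was at 0 in all libraries. Of the 6 markers of the later embryo 1 was tested, Nanog, and 0 were called by limma (Nanog log2 fold change -1.32, unadjusted p below 0.05, adjusted p 0.115). Cdx2 was at 0 in all libraries. The sum was 3.39 to 7.41 FPKM in DRB and 14.6 to 17.3 FPKM in Con, and without Nanog it was 0.35 to 0.67 FPKM in DRB and 0.56 to 4.59 FPKM in Con. The part of these differences in the level of Nlrp5-ps was not tested. The mitochondrial share also differed, and with mitochondrial genes left out the log2 fold change of Nlrp5-ps was 1.98 (limma, adjusted p 0.0284). In a bulk library more embryos or cells holding an RNA cannot be told apart from more of it per cell.

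The summed markers of cumulus, sperm and blood cells, which could be carried along with embryos, overlapped between the groups. The sum of the 8 cumulus and granulosa cell markers was 144 to 276 FPKM in DRB libraries and 213 to 387 FPKM in Con libraries, with Has2, Ptx3, Fshr and Inha at 0 in all. Most of it was Gja1, with 120.95, 255.9 and 193.72 FPKM in DRB embryos, against 195.08, 363.71 and 299.77 FPKM in Con embryos. Amhr2 had 17.87 to 28.23 FPKM, while Tnfaip6 and Foxl2 reached at most 0.05 and 0.1 FPKM. This sum therefore says little beyond the level of Gja1. The 6 sperm markers summed to 12.3 to 24.2 FPKM in DRB and 12.7 to 22.7 FPKM in Con, with Tnp2 at 0 in all. The 6 blood cell markers summed to 59.8 to 102 FPKM in DRB and 77.3 to 123 FPKM in Con. Of the 7 oocyte markers 0 were called by limma and 0 had an unadjusted p below 0.05, and 3 of the 7 log2 fold changes were above 0. Their sum was lower in every DRB library, at 47.4 to 53.5 FPKM in DRB and 58.3 to 67.2 FPKM in Con. That gap rested on Zp3, a protein of the egg coat, with 29.56, 22.15 and 36.44 FPKM in DRB embryos, against 41.42, 39.26 and 42.06 FPKM in Con embryos (limma, adjusted p 0.430). Without Zp3 the sums overlapped, at 10.95 to 30.87 FPKM in DRB and 17.08 to 25.78 FPKM in Con.

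Nlrp14 was the most abundant member. It had 51.72, 37.73 and 20.48 FPKM in DRB embryos, against 40.26, 50.65 and 47.67 FPKM in Con embryos. The DRB libraries spread widely, from the highest to the lowest of the 6, and the groups overlapped. The log2 fold change was -0.41 with a standard error of 0.36 and a 95% interval of -1.20 to 0.38 (limma, adjusted p 0.603), so the interval holds both lower and higher levels. Without DRB replicate 3 it was -0.056, and over all 6 fits with a library left out it ran from -0.70 to -0.056.

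The genes whose levels ran most alike to Nlrp14 over the 6 libraries, among the 3185 named genes whose mean reached 20 FPKM, were Pard3 (r 0.991), Sapcd2 (0.983), Zfp97 (0.977), Dyrk1a (0.960) and Wdr36 (0.960). The points share the 6 libraries, and 176 tested genes had an r above 0.9, so these are a description. Pard3 is a cell polarity protein, Dyrk1a a kinase and Wdr36 a nucleolar factor of ribosomal RNA processing. All 5 had their lowest level in DRB replicate 3, as Nlrp14 did. That library was the lowest for 5 of the 8 members, Nlrp14, Nlrp4a, Nlrp4e, Nlrp9b and Nlrp4b. Con replicate 1 was the lowest for the other 3, Nlrp9c, Nlrp5-ps and Nlrp9a.

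Of the 3 Nlrp9 genes Nlrp9c was far ahead in every library, and Nlrp9a lay above Nlrp9b in all but Con replicate 1. Nlrp9c had 35.56, 42 and 29.53 FPKM in DRB embryos, against 18.07, 30.92 and 31.66 FPKM in Con embryos, and Con replicate 1 lay apart below the others. The log2 fold change was 0.42 with a 95% interval of -0.30 to 1.15 (limma, adjusted p 0.551). With a library left out it ran from 0.17, without Con replicate 1, to 0.56. Con replicate 1 also had the most genes above 0, 22102, and the lowest mitochondrial share, 12.2%. Nlrp9a had 4.47, 4.71 and 3.91 FPKM in DRB embryos, against 2.2, 3.92 and 2.43 FPKM in Con embryos, where the groups met at 3.91 and 3.92. Its log2 fold change was 0.50, interval -0.38 to 1.38 (adjusted p 0.563). Nlrp9b had 2.51, 2.61 and 0.87 FPKM in DRB embryos, against 2.9, 1.45 and 2.26 FPKM in Con embryos, with a log2 fold change of -0.13 (interval -1.09 to 0.83, adjusted p 0.914).

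Summed over the 3 genes the Nlrp9 level was 42.54, 49.32 and 34.31 FPKM in DRB embryos, against 23.17, 36.29 and 36.35 FPKM in Con embryos, and Nlrp9c made up 78.0% to 87.1% of it in every library. The level of Nlrp9c was 7.55 to 13.03 times that of Nlrp9a and 6.23 to 33.9 times that of Nlrp9b across the libraries. The transcripts of Nlrp9a and Nlrp9c are 88.2% identical over 3208 bases, those of Nlrp9a and Nlrp9b 84.5% and those of Nlrp9b and Nlrp9c 83.7%. In the RefSeq table of promoters (GRCm38.p6), which holds 6 of the 8 members, the windows from 250 bases before to 50 bases after the start of Nlrp9c (chr7:26403651-26403950, minus) and Nlrp9a (chr7:26534773-26535072, plus) matched at 96.4% of 253 aligned bases, the closest of the pairs compared within a subfamily. That share leaves out the bases of the 300-base windows that fell opposite gaps. The windows are shown because their aligned bases are so alike at genes whose levels differ by 7.55 to 13.03 times. Capitals mark TAATTG, the NOBOX motif, and CANNTG, the E-box bound by FIGLA and other factors, searched on both strands. In these windows no match of one motif overlaps a match of the other.
Nlrp9c: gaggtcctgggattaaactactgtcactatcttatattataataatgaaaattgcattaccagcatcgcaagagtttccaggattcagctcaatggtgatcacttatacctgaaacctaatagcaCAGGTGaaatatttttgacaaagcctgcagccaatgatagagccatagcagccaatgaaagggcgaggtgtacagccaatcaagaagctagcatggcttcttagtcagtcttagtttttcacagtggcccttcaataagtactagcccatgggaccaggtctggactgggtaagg
Nlrp9a: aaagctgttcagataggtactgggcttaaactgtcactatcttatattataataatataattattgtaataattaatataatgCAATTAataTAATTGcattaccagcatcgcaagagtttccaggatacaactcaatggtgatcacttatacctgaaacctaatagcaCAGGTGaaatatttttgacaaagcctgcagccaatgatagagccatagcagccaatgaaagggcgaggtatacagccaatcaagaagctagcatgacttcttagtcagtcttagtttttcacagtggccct
Both hold 1 CANNTG, and Nlrp9a has 2 TAATTG where Nlrp9c has 0. Nlrp9b, whose window matched Nlrp9c at 61.8% and Nlrp9a at 64.3%, has 1 TAATTG and 4 CANNTG. Among all 32851 promoters listed there, 8.0% hold TAATTG and 72.3% hold CANNTG. These matches are a description of the letters and are not binding sites.

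The 3 Nlrp4 genes were low and varied between libraries more than between groups. Nlrp4a had 4.26, 5.63 and 2.91 FPKM in DRB embryos, against 3.34, 2.94 and 4.76 FPKM in Con embryos (log2 fold change 0.16, 95% interval -0.76 to 1.07, limma adjusted p 0.892). Nlrp4b had 2.59, 1.53 and 0.74 FPKM in DRB embryos, against 2.39, 0.88 and 3.56 FPKM in Con embryos (-0.29, interval -1.33 to 0.75, adjusted p 0.81). The groups overlapped for each of these genes. Nlrp4e, whose knockdown hampers mouse preimplantation development, had 2.49, 4.73 and 2.09 FPKM in DRB embryos, against 2.53, 3.85 and 6.86 FPKM in Con embryos (-0.37, interval -1.39 to 0.64, adjusted p 0.737). Con replicate 3 held the highest value of Nlrp4e and DRB replicate 3 the lowest. The sum of the 3 genes was 9.34, 11.89 and 5.74 FPKM in DRB embryos, against 8.26, 7.67 and 15.18 FPKM in Con embryos. Their transcripts were 85.9% (Nlrp4a and Nlrp4e), 79.5% (Nlrp4b and Nlrp4e) and 78.7% (Nlrp4a and Nlrp4b) identical. Summed over the 7 coding members the level was 87.7 ± 23.6 FPKM in DRB embryos and 88.5 ± 14.7 FPKM in Con embryos (SD, n = 3 each).

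Gm8486 shares 30.3% of the stretches of Nlrp4e and was chosen for mention after its values were seen. It had 8.64, 7.76 and 9.66 FPKM in DRB embryos, against 0.63, 0.95 and 0.14 FPKM in Con embryos, with no overlap. It passed the filter through the DRB libraries alone, so these values are a description with no test. In DRB embryos the pseudogene copy stood above Nlrp4e in every library, and in Con embryos below it. Gm6902, 22.3 kb from Nlrp4e, had 24.84, 25.28 and 13.1 FPKM in DRB embryos, against 5.3, 0 and 0.86 FPKM in Con embryos (3.23 on the log2 scale, adjusted p 0.0238), a call lost without DRB replicate 1, DRB replicate 2, Con replicate 2 or Con replicate 3, with a pseudocount of 0.1 (adjusted p 0.0944) and without the filter (0.259). Among the neighbours of the members within 100 kb that passed the filter, 0 others were called by limma. Next to Nlrp5-ps these were Obox3-ps7 (log2 fold change -0.78, adjusted p 0.433), Obox7 (-0.99, 0.214) and Obox3-ps1 (0.28, 0.796).

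The rest of the family was covered by a list. Of 25 other Nlrp and Nlr genes 24 were in the files and 9 passed the filter, and 0 of these were called by limma, with 0 at an unadjusted p below 0.05 and a median log2 fold change of -0.12. Nlrp4f, a member of the subcortical maternal complex, was the most abundant, with 20.54, 24.93 and 9.32 FPKM in DRB embryos, against 16.64, 20.92 and 23.08 FPKM in Con embryos (adjusted p 0.826). DRB replicate 3 was its lowest library, as for most members. Nlrp4d, Nlrp1b, Naip6 and Nlrp1c-ps were listed at 0 in all libraries, and Nlrp3 reached at most 0.15 FPKM. Of the 8 genes of the subcortical maternal complex all were tested and 0 were called, with 1, Padi6, at an unadjusted p below 0.05 (log2 fold change -0.98, limma adjusted p 0.253). Of the 8 inflammasome partners only Txnip, a thioredoxin-binding protein, and Il18, a cytokine, passed the filter, and neither was called. Pycard was at 0.23 to 0.56 FPKM in DRB libraries and at 0.52 to 2.96 FPKM in Con libraries.

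Of 30 symbols listed for other oocyte transcripts 29 were in the files, 25 were tested, 1 was called higher and 0 were called lower. The called gene was Oosp3, an oocyte-secreted protein gene, with 132.98, 369.4 and 44.76 FPKM in DRB embryos, against 14.51, 29.13 and 11.26 FPKM in Con embryos (log2 fold change 2.88, limma adjusted p 0.0403). That call was lost without DRB replicate 1, DRB replicate 2, Con replicate 1 or Con replicate 3, with a pseudocount of 0.1 (adjusted p 0.0743) and without the filter (0.322). Of the 25 tested, 3 had an unadjusted limma p below 0.05, against 18.1% of all tested genes. The groups did not overlap for 3, against 23.8% of all tested genes. Oosp1 was also higher in every DRB library (log2 fold change 1.64, limma adjusted p 0.0963) and was not called. H1foo was lower by the fit (-1.46, adjusted p 0.198), with overlapping groups. The median over the list was -0.09, as over all tested genes.

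**Figure D4:**
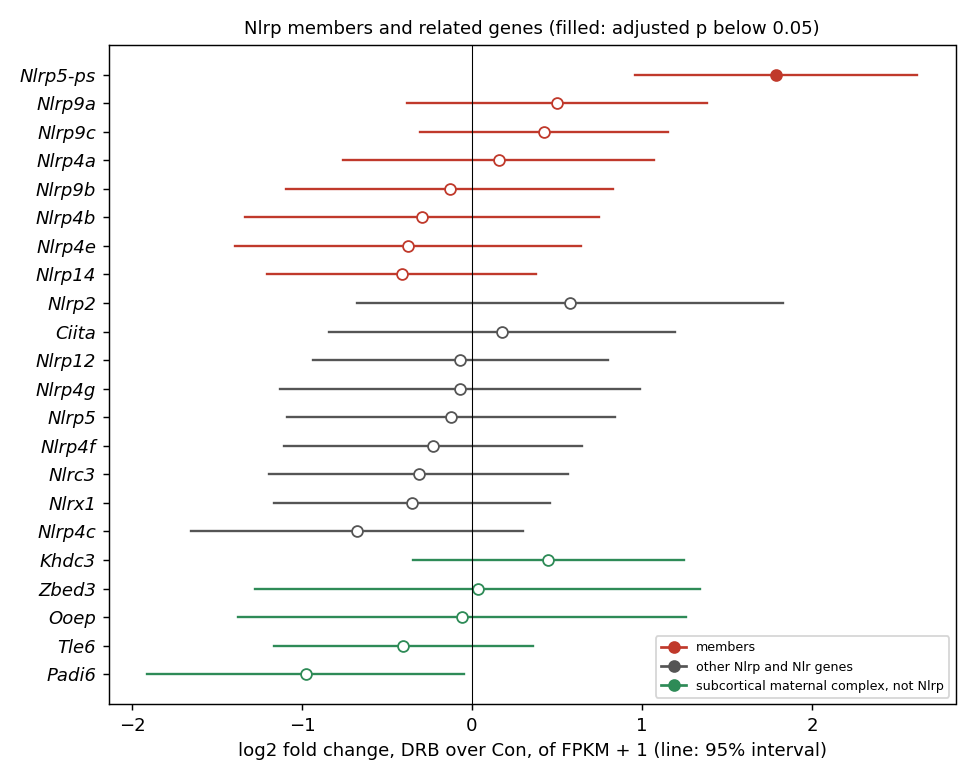
Log2 fold change of FPKM + 1, DRB over Con, with its 95% interval, for the members (red), the other Nlrp and Nlr genes that were tested (grey) and the remaining genes of the subcortical maternal complex (green), where a filled point is called by limma. Nlrp5-ps at 1.79 is filled, and all other intervals but that of Padi6 include 0.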

How the data were processed

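RNA of 6 libraries (3 DRB, 3 Con) was measured by Smart-Seq2. Per the submitters' processing notes, the authors used cutadapt 1.16 and STAR, with mm10 as the build. The tool and annotation behind the expression values, the strandedness and the handling of multi-mapping reads are not stated there. The authors deposited FPKM per gene, and depth was estimated from the steps of low values of single-transcript genes. Of these values 75.3% to 84.8% came out whole within 0.15. Depth and the bases taken off transcript length were chosen to make this share highest, so it does not check the depth. Whole counts were not rebuilt and no count test was run.

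Groups were compared by limma 3.58.1 (R 4.3.3) on log2(FPKM + 1), mean-variance trend, group as the single term, two-sided, Benjamini-Hochberg over the 11893 genes with at least 1 FPKM in at least 3 libraries. The fit was checked on simulated data. The members, gene lists and tests were chosen with earlier results of these data known. The genes planned for naming were the members and the called genes of each list, or else up to 3 of its most abundant. The 5 genes most alike to the top member and tested neighbours within 100 kb were also planned. Not every planned gene is named. Some genes outside the plan are named, such as Padi6, Gm8486, Nlrp3, Oosp1 and H1foo, and their values were known when they were chosen. No protein sequences were used; transcript identity (Biopython 1.88) was taken in their place. Of 55335 gene IDs 55154 matched GENCODE M21 (GRCm38, the assembly of mm10).

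Alternatives were a pseudocount of 0.1, no filter, a minimum of 5 FPKM, a replicate block, leaving out each library, median-of-ratios scaling, mitochondrial genes left out, and a threshold of 0.01. Over all tested genes same-numbered libraries did not deviate together (r -0.0468, 0.053 and -0.0512). A pairing that touches few genes would not show in these values.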

Additional observations from a re-analysis of the deposited data

How the results depend on the processing

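Over all tested genes 295 were called, 182 higher and 113 lower in DRB. The counts were 164, 113 and 51 with a pseudocount of 0.1 and 50, 43 and 7 at an adjusted p below 0.01. Without the filter there were 6 calls, 6 higher and 0 lower. A replicate block gave 171 calls, 44 of them lower. Leaving out 1 library gave 47 to 220 calls, 34 to 139 higher and 13 to 81 lower; the lowest counts came without DRB replicate 1 (47), and there were 151, 148, 110 and 106 calls without DRB replicate 2, Con replicate 1, Con replicate 2 and Con replicate 3. Members called higher were 0 in each of these fits but the one with a pseudocount of 0.1, which called 1; the cause was not tested. Calls were 61.7% higher in the main fit, 72.7% with median-of-ratios scaling and 73.7% with mitochondrial genes left out, where the median log2 fold change shifted by 0.125. Nlrp5-ps was called in 4 of 13 alternatives, with a log2 fold change of 1.64 to 2.06. With a library left out Nlrp4a ran from -0.026 (without DRB replicate 2) to 0.35 and Nlrp9b from -0.31 to 0.18 (without DRB replicate 3; 0.02 without Con replicate 1), none of them called. The other 7 members were called under 0 alternatives, and with a minimum of 5 FPKM Nlrp9c, Nlrp14 and Nlrp5-ps alone were tested. The 95% intervals of the 7 uncalled members lie between -1.39 and 1.38.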
